A study of Homo sapiens with 3 samples.

Results

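Serine is made in human cells from 3-phosphoglycerate by PHGDH, PSAT1 and PSPH in turn, and SHMT2 then splits it in mitochondria into glycine and a one-carbon unit. The same enzymes, with the asparagine synthetase ASNS, are known targets of ATF4, the central transcription factor of the integrated stress response. In that response, kinases that sense missing amino acids, misfolded protein, viral RNA or missing haem phosphorylate the initiation factor eIF2, which lowers protein synthesis in general and favours translation of ATF4 itself, so that the amount of ATF4 mRNA is a poor guide to the amount of ATF4 protein. ATF3, DDIT3 (CHOP) and DDIT4 (REDD1, an inhibitor of the growth kinase complex mTORC1) lie downstream, and CREB3L2 is a membrane-bound transcription factor of the endoplasmic reticulum that serves the secretory pathway. Neuroblastomas with extra MYCN copies are known for high serine synthesis.

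These 10 genes, PHGDH, PSAT1, PSPH, SHMT2, ASNS, ATF3, ATF4, DDIT3, DDIT4 and CREB3L2, were taken by symbol from the annotation of the array. All 10 were measured, each by 1 probe set, out of 14884 named genes in the table. Their levels were compared in BE(2)-C, a MYCN-amplified human neuroblastoma line, 40 hours after treatment with a control siRNA, or with either of a pair of siRNAs against WDR5, named siRNA-1 and siRNA-2. WDR5 is a scaffold subunit of the enzymes that methylate histone H3 at lysine 4. Each of the 3 groups was 1 HuGene-2_0-st array, so there is no replicate error and no test, and a ratio sets 1 array against another. Both siRNA ratios share the single control array.

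A gene was counted as higher or lower when a pair of arrays differed by at least 1.5-fold. Counts were made over the 7442 genes whose mean log2 level over the 3 arrays was at or above that of the median gene, 6.78 (kept genes). Of the 10 genes, 9 were kept, and DDIT3 lay below this level. The log2 level of WDR5 itself was 9.46 in control and 7.90 on each siRNA array. Of 10 markers of sympathetic neuroblastoma 8 were measured, and all 8 were kept, with control levels from 7.29 to 11.6. Of these, DBH and CHGA, chosen after their values were seen, were split between the siRNA arrays: DBH had log2 ratios to control of -0.81 (siRNA-1) and 0.51 (siRNA-2), and CHGA of -0.47 and 0.73. The measured markers of fibroblasts, endothelium, Schwann cells and leukocytes, 7 of 14 listed, had control levels from 4.29 to 7.75. The values of the 23 background rows of the array ranged from 1.75 to 9.26, with a median of 4.61. The same value stood on all 3 arrays in 14.9% of the kept genes, and on at least 1 pair of arrays in 41.1%, so a ratio of exactly 0 is common in this table.

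PHGDH, the first enzyme of serine synthesis, was the member that stood apart, and it did so on the siRNA-1 array alone. The other enzymes of the route, PSAT1, PSPH and SHMT2, were no more than 1.10-fold from control with either siRNA, and so was ASNS. On the stress response side, CREB3L2, ATF3 and DDIT4 were higher than control with both siRNAs, by no more than 1.23-fold. DDIT3, below the level filter, was 1.80-fold above control on the siRNA-1 array and 1.14-fold above it on the siRNA-2 array. None of the 9 kept members was 1.5-fold from control with both siRNAs, in either direction. Among all kept genes 0.618% were higher and 0.847% lower by that much with both.

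**Figure D1:**
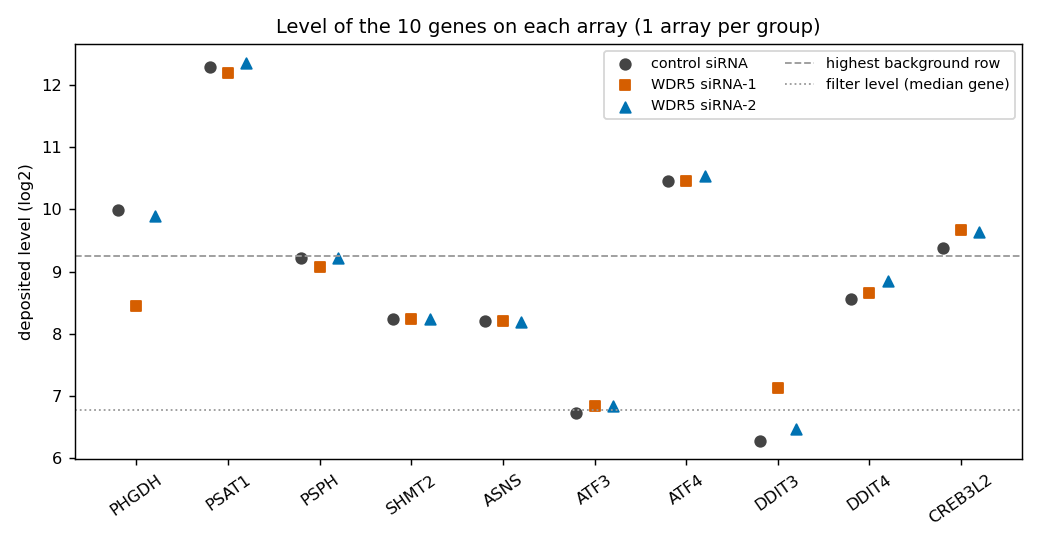
Deposited log2 level of each of the 10 genes (x axis) on the control array (circles) and the arrays of siRNA-1 (squares) and siRNA-2 (triangles), 1 point per array and no error bars because each group is 1 array. The dashed line is the highest background row (9.26) and the dotted line the filter level (6.78); PHGDH at 8.44 with siRNA-1, against 9.99 and 9.90, and DDIT3 at 7.14 with siRNA-1, against 6.29 and 6.47, are the points that stand off from their own gene's other points.

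PHGDH (probe set 16669389) had a log2 level of 9.99 with control siRNA, 8.44 with siRNA-1 and 9.90 with siRNA-2. The siRNA-1 array was low, and the other arrays were close together. The log2 ratio to control was -1.54 with siRNA-1, which is 2.92-fold lower, and -0.09 with siRNA-2, which is 1.06-fold lower. Between the siRNAs the log2 ratio was -1.45, or 2.74-fold lower with siRNA-1. PHGDH was the single kept member at least 1.5-fold lower with siRNA-1, against 4.60% of all kept genes, and 0 members were higher by as much, against 2.24%. With siRNA-2, 0 members were 1.5-fold lower and 0 higher, against 4.00% and 2.19% of all kept genes. Only 12 of the 7442 kept genes had a lower siRNA-1 ratio than PHGDH, whereas 29.0% of them had a lower siRNA-2 ratio. The level of 8.44 lay under the highest background row, 9.26, and the other PHGDH levels above it, so the size of the fold is uncertain. The value of WDR5 was an exact tie at 7.90 on the siRNA arrays, also under the highest background row, so it does not measure whether WDR5 was equally depleted. The markers DBH and CHGA were likewise lower on the siRNA-1 than on the siRNA-2 array (log2 ratios of -1.32 and -1.20 between them). The other measured neuroblastoma markers did not all go this way. GATA3 and HAND2 were higher on the siRNA-1 array (0.30 and 0.33), and TH was tied. The rest were lower on it, with no log2 ratio below -0.37. The part of these markers in the PHGDH result was not tested.

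The sequence around the PHGDH start is shown because this gene carries the difference on the siRNA-1 array. It spans chr1:119711684-119711983 (GRCh38.p14, plus strand, RefSeq), from 250 bases before the start to 50 bases from it on, and is in lower case throughout, because none of the motifs searched was found in it.
PHGDH: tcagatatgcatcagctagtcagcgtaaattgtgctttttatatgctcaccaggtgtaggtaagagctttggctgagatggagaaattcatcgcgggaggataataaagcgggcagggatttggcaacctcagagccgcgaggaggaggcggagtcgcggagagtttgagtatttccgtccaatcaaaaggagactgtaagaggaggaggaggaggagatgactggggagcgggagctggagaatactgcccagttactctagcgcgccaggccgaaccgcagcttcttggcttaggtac

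PSAT1, the aminotransferase of the second step, had levels of 12.28 with control siRNA, 12.18 with siRNA-1 and 12.35 with siRNA-2. The siRNA-1 array was the lowest and the siRNA-2 array the highest, with log2 ratios to control of -0.09 and 0.07. PSPH, the phosphatase that releases serine, had levels of 9.22, 9.08 and 9.21 in the same order. Its ratios were -0.14 with siRNA-1 and -0.01 with siRNA-2, and the latter turned to 0.01 with arrays centred on their medians, 0.02 relative to housekeeping genes and 0.04 with quantile normalization. SHMT2 stood at 8.25 on all 3 arrays, an exact tie. The 3 enzymes of the serine route proper therefore shared a low point on the siRNA-1 array, but 27.3% of kept genes had a lower siRNA-1 ratio than PSAT1 and 23.0% a lower one than PSPH, against 0.161% for PHGDH. The RefSeq gene table lists 4 pseudogenes of PSAT1, 1 of PSPH, 5 of ASNS and 4 of ATF4 by symbol, and 0 of PHGDH, so the levels of the former may include signal from copies.

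ASNS, which makes asparagine from aspartate and glutamine and is a standard readout of ATF4 activity, had levels of 8.20 with control siRNA, 8.20 with siRNA-1 and 8.18 with siRNA-2. The first pair was an exact tie, and the siRNA-2 ratio of -0.02 turned to 0.01 relative to housekeeping genes and to 0.06 with quantile normalization. ATF4 had levels of 10.45, 10.45 and 10.53, again tied exactly between control and siRNA-1, with a log2 ratio of 0.09 for siRNA-2. Neither gene thus separated the WDR5 siRNA arrays from control. All ASNS levels lay under the highest background row, 9.26, as did those of PSPH, SHMT2, ATF3 and DDIT4. The small ratios of these genes are therefore uncertain.

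ATF3, a stress-induced factor of the same bZIP family, had levels of 6.73 with control siRNA and 6.85 with each WDR5 siRNA. The siRNA arrays tied exactly, both 0.12 above control on the log2 scale. DDIT3, which encodes the pro-apoptotic factor CHOP (probe set 16766578), had levels of 6.29 with control siRNA, 7.14 with siRNA-1 and 6.47 with siRNA-2. Its siRNA-1 array was the high one, with a log2 ratio to control of 0.85, or 1.80-fold higher, against 0.19, or 1.14-fold higher, with siRNA-2. Only 86 of all 14884 named genes had a higher siRNA-1 ratio. Because the mean level of DDIT3 was below 6.78, it is outside the counts above. Of the 7442 genes below that level, the siRNA-1 array was at least 1.5-fold above control in 0.847% and as far below it in 0.954%. All 3 DDIT3 levels lay within the range of the background rows.

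DDIT4 had levels of 8.56 with control siRNA, 8.65 with siRNA-1 and 8.85 with siRNA-2. The siRNA-2 array was the highest, 1.23-fold above control (log2 ratio 0.29). The siRNA-1 ratio of 0.09 turned to -0.03 when levels were taken relative to housekeeping genes. CREB3L2 had levels of 9.38, 9.66 and 9.64, so that both siRNA arrays were above control by a similar amount, 1.22-fold and 1.19-fold. It was the member with the largest ratio that both siRNAs shared, and it kept its direction under each scaling tried, from 0.16 to 0.29 with siRNA-1 and from 0.25 to 0.29 with siRNA-2. Of kept genes, 10.1% had a higher siRNA-1 ratio than CREB3L2 and 9.20% a higher siRNA-2 ratio.

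**Figure D2:**
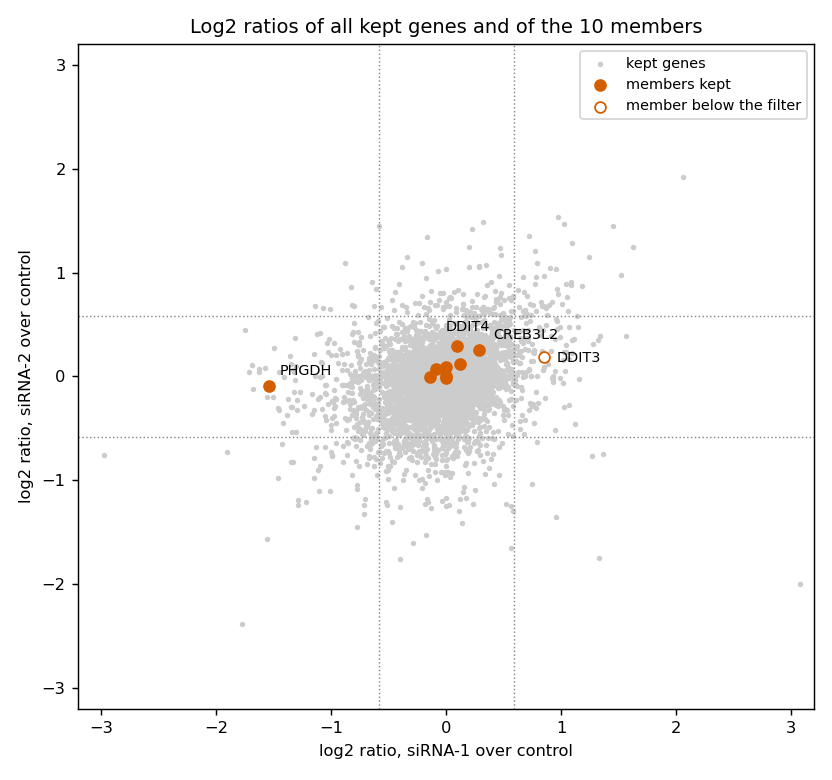
Log2 ratio to control with siRNA-1 (x axis) and siRNA-2 (y axis) for the 7442 kept genes (grey), the 9 kept members (filled) and DDIT3, which lay below the filter (open); dotted lines mark 1.5-fold, and both axes use the same control array. PHGDH lies at -1.54 and -0.09, far to the left and near 0 on the y axis, and the other kept members lie within the central cloud.

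By sign alone, 3 of the 9 kept members (ATF3, DDIT4 and CREB3L2) were higher than control with both siRNAs, against 18.0% of all kept genes. Lower with both were 2 (PHGDH and PSPH), against 22.3%. PSAT1 was the 1 member on opposite sides of control, against 25.2%. ATF3 passed the filter of 6.78 only through its siRNA arrays (6.85 each), its control level being 6.73. Relative to housekeeping genes, DDIT4 turned to -0.03 with siRNA-1 and PSPH to 0.02 with siRNA-2, so these signs are uncertain. The median log2 ratio of the kept members was 0.00 with siRNA-1 and 0.07 with siRNA-2, and that of all kept genes was 0.00 with each. Directly between the siRNAs, PHGDH was the 1 kept member whose siRNA-1 level was at least 1.5-fold below its siRNA-2 level, against 4.65% of kept genes, and 0 were higher by as much, against 4.21%. By any amount, 5 members were lower on the siRNA-1 array than on the siRNA-2 array and 2 higher, against 35.5% and 43.1% of kept genes.

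The genes whose ratios lay nearest to those of PHGDH over the 3 arrays, by Euclidean distance in both log2 ratios to control among protein-coding kept genes, were ATXN7L3B (distance 0.11), RNGTT (0.11), RNF157 (0.14), DOLPP1 (0.15) and TMEFF2 (0.16). RNGTT, the mRNA capping enzyme, was 2.95-fold below control on the siRNA-1 array and 1.15-fold below it on the siRNA-2 array. RNF157, a ubiquitin ligase, was 3.21-fold and 1.09-fold lower. DOLPP1, a phosphatase of dolichol metabolism, was 3.09-fold below control and 1.03-fold above it, respectively. None of these genes is on the serine or stress response lists. With 3 arrays, the likeness says only that the siRNA-1 array was low in each.

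Around the serine route, a list of 32 genes of serine, glycine and one-carbon metabolism held 21 measured and 18 kept genes, 4 of them members. At 1.5-fold, 3 were lower with siRNA-1 (PHGDH, CTH and SRR), 1 was lower with siRNA-2 (TYMS), and 0 were higher with either. The list's median log2 ratio was -0.09 with siRNA-1 and -0.02 with siRNA-2, against 0.00 and 0.00 over all kept genes. By any amount, 8 genes were lower with both siRNAs and 1 higher, where 22.3% and 18.0% of all kept genes were. The shares of all kept genes past 1.5-fold were 4.60% lower with siRNA-1 and 4.00% with siRNA-2. SRR, serine racemase, had levels of 7.34 with control siRNA, 6.63 with siRNA-1 and 6.81 with siRNA-2, 1.64-fold and 1.44-fold lower. CTH, which makes cysteine from cystathionine, had levels of 7.51, 6.85 and 7.26, which is 1.58-fold and 1.19-fold below control. The siRNA-2 ratios of SRR and CTH, -0.53 and -0.25, lay farther below control than that of PHGDH, -0.09. All levels of SRR and CTH lay under the highest background row, 9.26, so their ratios are uncertain. The siRNA-1 level of SRR was also under the filter level, 6.78, which SRR passed on its mean, 6.93.

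TYMS, the thymidylate synthase that consumes one-carbon units, had levels of 11.07, 10.70 and 10.44, which is 1.29-fold and 1.55-fold below control. SHMT1, the cytosolic counterpart of SHMT2, had a control level of 8.43 and a level of 7.95 on each siRNA array, 1.39-fold lower. The value of SHMT1 was thus lower on both siRNA arrays, while that of SHMT2 was tied throughout. The siRNA values of SHMT1 were also an exact tie. All levels of both genes lay under the highest background row, 9.26, so the contrast is uncertain. MTHFD1L, of the mitochondrial one-carbon route, had log2 ratios of -0.08 and -0.02. GLDC, of the glycine cleavage system, stood at 6.32 on all 3 arrays and was below the filter.

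Among the upstream kinases, EIF2AK2 (PKR, the sensor of double-stranded RNA) had levels of 10.50, 10.02 and 10.46, which gives siRNA-1 and siRNA-2 ratios of -0.47 and -0.04 on the log2 scale. EIF2AK4 (GCN2, the sensor of uncharged tRNA) had ratios of -0.27 and -0.21. EIF2AK3 (PERK, the sensor in the endoplasmic reticulum) had ratios of 0.27 and -0.02, and EIF2AK1 (HRI, the haem-regulated kinase) of -0.06 and -0.05. The list of kinases and eIF2 regulators held 17 genes, 6 measured and 6 kept, and 0 reached 1.5-fold with either siRNA. Past that limit, 2.24% of all kept genes were higher and 4.60% lower with siRNA-1, and 2.19% and 4.00% with siRNA-2. The list's medians were -0.02 and -0.04.

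Of 27 listed targets of ATF4 and CHOP, 17 were measured and 15 kept. At the 1.5-fold limit, 1 kept gene was higher with siRNA-1 (KLHL24), 0 were higher with siRNA-2, and 0 were lower with either. Of all kept genes, 2.24% were higher and 4.60% lower with siRNA-1, and 2.19% and 4.00% with siRNA-2. DDIT3, also on this list and 1.80-fold higher with siRNA-1, was left out of the count by the level filter. The list's medians were 0.00 with siRNA-1 and 0.07 with siRNA-2, and the latter went to 0.28 with the 75th percentile filter. TRIB3, a pseudokinase that is among the most responsive ATF4 and CHOP targets, stood at 7.50 on all 3 arrays. PCK2, the mitochondrial phosphoenolpyruvate carboxykinase, was 1.26-fold lower with each siRNA, and the siRNA arrays tied exactly at 7.92 against 8.25 in control. ATF5 had log2 ratios of 0.16 and 0.07. KLHL24, a ubiquitin ligase adaptor, had levels of 8.51, 9.37 and 8.31, so it was 1.82-fold above control on the siRNA-1 array and 1.15-fold below it on the other.

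SESN2, an ATF4 and p53 target that restrains mTORC1, had levels of 8.02 with control siRNA, 7.49 with siRNA-1 and 8.31 with siRNA-2. These are 1.44-fold below and 1.23-fold above control, so that the siRNA arrays lay on opposite sides of control. Its relative SESN3 had levels of 8.27, 8.55 and 9.32, and was 1.22-fold and 2.08-fold higher. Among 11 listed regulators of mTORC1 around DDIT4, 10 were kept. SESN3 was the 1 gene at least 1.5-fold higher with siRNA-2, 0 were higher with siRNA-1, and 0 were lower with either. The shares of all kept genes were 2.19% higher and 4.00% lower with siRNA-2, and 2.24% and 4.60% with siRNA-1. The medians of that list were 0.03 and 0.09.

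The 12 cytosolic tRNA synthetases, all kept, had medians of -0.04 and 0.02, and 0 reached 1.5-fold from control with either siRNA. Over all kept genes, 2.24% were that much higher and 4.60% lower with siRNA-1, and 2.19% and 4.00% with siRNA-2. Of 23 listed genes of endoplasmic reticulum chaperones and the ATF6 and XBP1 arms, 11 were measured and 10 kept, with medians of -0.03 and 0.03 and 0 genes at 1.5-fold from control with either siRNA. XBP1, the spliced transcription factor of that response, had log2 ratios of -0.13 and 0.20. In the CREB3 family list, 4 of 8 genes were kept, with medians of -0.16 and -0.10. The siRNA-2 median turned to 0.07 with the 75th percentile filter, and the siRNA-1 median went to 0.00 with no filter. CREB3L4, a relative of CREB3L2, had levels of 8.02, 7.81 and 6.95, which is 1.16-fold and 2.10-fold below control, opposite in direction to CREB3L2. SEC23A, a vesicle coat gene that CREB3L2 is known to drive, had log2 ratios of -0.10 and 0.07.

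The asparagine, aspartate and glutamine list had 5 of 8 genes kept, with medians of 0.00 and 0.00. The list of ATF and related bZIP factors had 8 of 15 kept, without DDIT3, and medians of 0.01 and 0.02. In both lists 0 kept genes were at 1.5-fold from control with either siRNA. Among all kept genes 2.24% were higher and 4.60% lower with siRNA-1, and 2.19% and 4.00% with siRNA-2. Of the 11 listed amino acid transporters, 0 had a probe set named in the annotation, so they are not analysed here. MTHFD2, CHAC1, PPP1R15A, CEBPB and HSPA5 had no named probe set either.

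**Figure D3:**
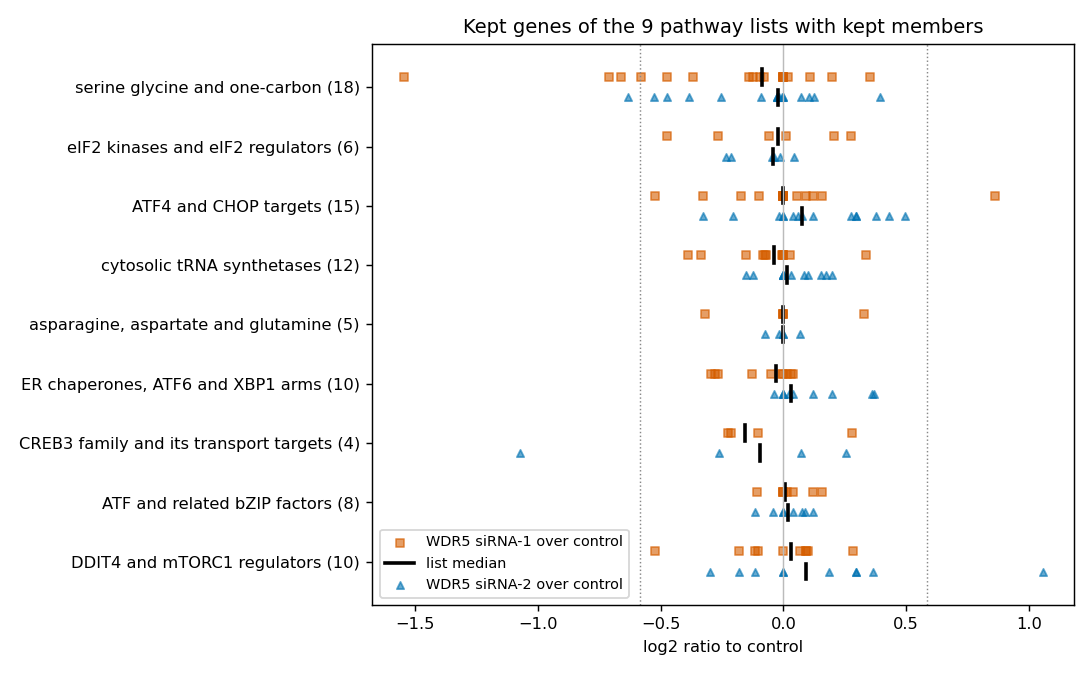
Log2 ratio to control (x axis) of each kept gene of 9 pathway lists (rows, number of kept genes in brackets), squares for siRNA-1 and triangles for siRNA-2, with black bars at the list medians and dotted lines at 1.5-fold. List medians lie between -0.16 and 0.09, and PHGDH is the point at -1.54 in the top row; a gene on several lists is drawn in each.

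Over the union of the lists without the members, 71 genes were kept. The siRNA-1 array was past 1.5-fold above control in 1 of them and below it in 2, and the siRNA-2 array likewise in 1 and 2. Over all kept genes the shares were 2.24% and 4.60% with siRNA-1 and 2.19% and 4.00% with siRNA-2. None passed with both siRNAs. Between the siRNAs, the siRNA-1 level was at least 1.5-fold below the siRNA-2 level in 5 (SESN2, SESN3, HYOU1, SDF2L1 and YARS1) and as far above it in 2 (KLHL24 and CREB3L4), against 4.65% and 4.21% of all kept genes. HYOU1 and SDF2L1, chaperone and cochaperone of the endoplasmic reticulum, and the tyrosyl-tRNA synthetase gene YARS1 were chosen after their values were seen. HYOU1 had siRNA-1 and siRNA-2 ratios of -0.29 and 0.36 on the log2 scale, SDF2L1 of -0.28 and 0.37, and YARS1 of -0.39 and 0.20. Each lay below control on the siRNA-1 array and above it on the siRNA-2 array.

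Sequence near the start sites was examined because ATF4 acts through a composite site, the C/EBP-ATF response element. RefSeq promoters (GRCh38.p14) were matched for 8 of the 10 genes, 13 promoters in all, PSPH and SHMT2 being the others. The core TGATGNAA was searched on both strands, with the E-box CACGTG, which MYC proteins bind, and the cAMP response element TGACGTCA. TGATGNAA was found in 3 of the 13 promoters, against 3.62% of all 35116 promoters of this length. CACGTG was found in 2 overlapping promoters of 1 gene, against 7.26%, and TGACGTCA in 1, against 1.85%. No match overlapped another motif. A match is a description of letters and does not show a bound site.

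The windows with matches follow, with the match in capitals. The stress element TGATGNAA was found in no promoter of PHGDH, PSAT1, DDIT3, DDIT4 or ATF4, so its absence there was not particular to PHGDH. Only 250 bases before each start and 50 from it on were searched, so a site farther away would be missed. In ASNS the match began 68 bases before the start (window chr7:97872443-97872502, minus strand), at the site known as the nutrient-sensing response element. In ATF3 it began 191 bases before 1 of its starts (chr1:212565190-212565249, plus strand), and in CREB3L2 16 bases after 1 of its starts (chr7:137932939-137932998, minus strand). The cyclic AMP element of CREB3L2 began 179 bases before its other start (chr7:138002232-138002291, minus strand), and the E-box of ATF4 began 82 or 85 bases before its starts (chr22:39520451-39520508, plus strand).
ASNS: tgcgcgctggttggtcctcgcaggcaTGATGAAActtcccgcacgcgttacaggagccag
ATF3: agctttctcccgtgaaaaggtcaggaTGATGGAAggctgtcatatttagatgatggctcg
CREB3L2, response element: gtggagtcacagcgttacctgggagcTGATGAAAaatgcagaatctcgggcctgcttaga
CREB3L2, cAMP element: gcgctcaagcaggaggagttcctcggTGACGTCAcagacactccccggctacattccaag
ATF4, E-box: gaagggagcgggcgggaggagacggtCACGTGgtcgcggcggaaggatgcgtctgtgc

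The genes with the stress element in the window differed in their ratios: ASNS was at 0.00 and -0.02, ATF3 at 0.12 and 0.12, and CREB3L2 at 0.28 and 0.25 (log2 ratios of siRNA-1 and of siRNA-2).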

How the data were processed

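Total RNA of 3 samples was hybridised, 1 array per group. The deposited table holds 53617 probe sets, whose values were read as log2 levels from their range (1.34 to 14.9); the file states no scale. The submitters' processing notes name MAS5, with no step given, and background correction, normalization and probe summarisation are not given in the sources used here. Array medians were 5.81, 5.79 and 5.79, and no further scaling was applied. With 3 arrays, precision is limited by their number.

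Of the probe sets, 16098 had 1 gene symbol in the platform annotation, and 37519 had none here. All Entrez identifiers were found in RefSeq (GRCh38.p14), which gave current symbols. A gene was represented by the probe set with the highest mean. Ratios are differences of log2 levels, computed with Python 3.11.15, pandas 2.3.3 and NumPy 2.4.6. The rule for counting was run on simulated arrays with set folds, which checks the calculation only and not the error of these arrays. No p-value was computed. The named genes are the members, up to 5 genes per list past 1.5-fold from control with either siRNA, a fixed set of pathway genes, and the 5 genes nearest to the member with the largest ratio. Genes named outside this rule are cell type markers or genes chosen after their values were seen. The members and lists were chosen with earlier results of these data known. Alternatives were quantile normalization, median centring, the mean of probe sets, other filters, a looser limit (log2 ratio of 0.32) and a 2-fold limit, and levels relative to housekeeping genes (4 of 6 listed were measured).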

Additional observations from a re-analysis of the deposited data

Results flagged for a closer look

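Of the genes named in the report, 13 lay on opposite sides of control with the siRNAs, each in 1 array per group. These differences were not tested. The log2 ratio of siRNA-1 over siRNA-2 was -0.17 for PSAT1, the 1 member among them. It was -0.82 for SESN2, -0.66 for HYOU1, -0.65 for SDF2L1, -0.59 for YARS1, -0.32 for XBP1, -0.17 for SEC23A, -1.32 for DBH, -1.20 for CHGA, -1.67 for DOLPP1 and -1.50 for TMEFF2, which were lower with siRNA-1. It was 1.06 for KLHL24 and 0.29 for EIF2AK3, which were higher with siRNA-1. Some of the 13 genes were named for their values: HYOU1, SDF2L1, YARS1, DBH and CHGA after these were seen, DOLPP1 and TMEFF2 for nearness to PHGDH. The count therefore cannot be set against the share of all kept genes on opposite sides of control, 25.2%.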

How the results depend on the processing

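PHGDH kept its direction and its side of the 1.5-fold limit with siRNA-1 under each scaling tried (log2 ratios of -1.66 to -1.53). With no filter on level, DDIT3 entered the counts, so that the members higher with siRNA-1 than control went from 0 to 1, and those higher on the siRNA-1 than on the siRNA-2 array from 0 to 1. Relative to housekeeping genes the latter DDIT3 ratio, 0.67, went to 0.52, under the log2 limit of 0.58. The other 54 recomputed counts of members did not move. The housekeeping mean was 0.12 above control with siRNA-1, so levels relative to it shifted every siRNA-1 ratio by -0.12, which turned DDIT4 to -0.03 and left ATF3 at 0.00. Genes at 1.5-fold with both siRNAs numbered 46 higher and 63 lower. They were 33 and 30 with the 75th percentile filter, 6 and 7 at 2-fold and 184 and 281 at the looser limit (log2 ratio of 0.32). In the lists without members, lower genes with siRNA-1 went from 2 to 0 with the 75th percentile filter or at 2-fold, and to 10 at the looser limit. Of 90 recomputed list medians 4 moved by over 0.1: besides those in the report, the siRNA-1 median of the asparagine list went from 0.00 to 0.33 with the 75th percentile filter. That value was the ratio of the only gene of the list left by this filter. No paired analysis was possible because each group had 1 array.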

Other observations

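Exact ties reached several genes of the serine and stress routes. ATF3, SHMT1 and PCK2, like WDR5, had the same value on both siRNA arrays and another on the control array. Of the 7442 kept genes, 492 (6.61%) had this pattern, and 5 of these were at least 1.5-fold lower and 1 at least 1.5-fold higher than control. The cause of the ties was not tested.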
